A study of Homo sapiens with 4 samples.

Results

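Open chromatin at the 3′ ends of protein-coding genes was examined in A375 cells, an established human melanoma line, by ATAC-seq, an assay that cuts accessible DNA with the transposase Tn5 and sequences the pieces. A region counted as a gene-end region when it lay within 1 kb of the 3′ end of a protein-coding gene and more than 1 kb from the start of every protein-coding gene. This rule uses positions only, and it found 1571 of the 125985 nuclear regions in the authors' deposited table. The cells had grown for 48 h with octanoate at 1 mM (a fatty acid of medium chain length) or with its vehicle, isopropanol, in 2 libraries per group. The labels name no genotype, and nothing in them says whether the 2 libraries of a group came from separate cultures, so the deposited p-values measure only the spread between these libraries.

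The 3′ end of a gene is where its RNA is cut and gets its poly(A) tail. RNA polymerase runs on past this end before it is released. Open DNA at such ends can hold enhancers of the same or another gene, binding sites for factors that shape chromatin loops, or the start of a non-coding or antisense transcript. Gene starts, by contrast, are usually broadly open in active genes, because the transcription machinery assembles there.

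The strand that separates a 3′ end from a start was known here for 15842 of 20037 protein-coding genes. Both ends of the other 4195 genes were treated as possible starts, so a region within 1 kb of either was left out. The start of a gene was taken at its outer bound. Within 1 kb of a further listed start of a coding gene there were still 16 gene-end regions. The gene-end regions lay at 1514 gene ends, 9.56% of those with a known strand, and 57 of these ends had 2 of them. They lay on 22 chromosomes, from 7 on chromosome 21 to 246 on chromosome 1, and 104 were within 1 kb of more than 1 gene end.

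Some gene-end regions also hold the start of a long non-coding RNA (lncRNA), and for these RefSeq gives the DNA around that start. Whole start windows of 300 bp (250 bp before the start and 50 bp after it) lay inside 28 gene-end regions, in 32 windows. Those below are the 5 with the highest signal among the windows that lie outside every coding gene and inside a region the authors tested, shown because they mark ends where another transcript begins. They are printed 5′ to 3′ along the lncRNA from RefSeq GRCh38.p14, and capitals mark the letters AATAAA (the poly(A) signal), TGANTCA (an AP-1 site), CACGTG or CATGTG (E-boxes) and GGGCGG (an SP1 site) read on either strand.
LOC124904423 (chr1:153533192-153533491, plus strand): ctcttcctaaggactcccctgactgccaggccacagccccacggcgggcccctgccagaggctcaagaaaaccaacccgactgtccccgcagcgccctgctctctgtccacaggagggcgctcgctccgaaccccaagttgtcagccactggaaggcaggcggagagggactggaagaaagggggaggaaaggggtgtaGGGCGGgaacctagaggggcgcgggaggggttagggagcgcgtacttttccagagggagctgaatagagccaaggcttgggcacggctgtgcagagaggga
LOC105373244 (chrX:70435244-70435543, minus strand): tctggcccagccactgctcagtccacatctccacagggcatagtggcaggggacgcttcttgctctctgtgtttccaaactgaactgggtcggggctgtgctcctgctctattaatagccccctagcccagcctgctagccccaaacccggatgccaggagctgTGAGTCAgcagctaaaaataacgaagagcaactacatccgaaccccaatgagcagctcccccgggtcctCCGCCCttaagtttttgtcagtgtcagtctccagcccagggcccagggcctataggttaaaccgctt
SNHG8 (chr4:118278512-118278811, plus strand): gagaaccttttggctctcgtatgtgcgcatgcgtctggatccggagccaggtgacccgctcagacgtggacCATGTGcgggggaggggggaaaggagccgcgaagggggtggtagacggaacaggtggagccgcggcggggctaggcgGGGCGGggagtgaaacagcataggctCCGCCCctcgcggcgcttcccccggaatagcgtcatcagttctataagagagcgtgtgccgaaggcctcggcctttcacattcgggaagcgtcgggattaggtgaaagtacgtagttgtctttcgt
LOC91450 (chr15:77994176-77994475, minus strand): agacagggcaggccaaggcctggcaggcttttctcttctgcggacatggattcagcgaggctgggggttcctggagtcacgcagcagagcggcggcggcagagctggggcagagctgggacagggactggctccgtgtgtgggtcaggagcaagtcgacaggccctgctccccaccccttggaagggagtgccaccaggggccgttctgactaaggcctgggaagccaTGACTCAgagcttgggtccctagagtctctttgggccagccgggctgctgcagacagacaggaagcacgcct
HEXIM2-AS2 (chr17:45171436-45171735, minus strand): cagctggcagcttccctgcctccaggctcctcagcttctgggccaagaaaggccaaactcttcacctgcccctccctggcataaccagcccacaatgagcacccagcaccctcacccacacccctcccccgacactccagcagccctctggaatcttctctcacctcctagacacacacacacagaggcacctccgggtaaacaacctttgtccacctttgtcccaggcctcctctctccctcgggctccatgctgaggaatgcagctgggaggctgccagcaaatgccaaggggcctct

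These windows stand beyond the 3′ ends of S100A6, GDPD2, PRSS12, TBC1D2B and HEXIM2, in that order. S100A6 encodes a calcium-binding protein, HEXIM2 an inhibitor of the elongation factor P-TEFb, and SNHG8 is a host gene of a small nucleolar RNA. Of all 32 windows, 20 held GGGCGG (62.5%), against 44.9% of 34943 RefSeq start windows and 25.4% of the 12894 at lncRNA starts. TGANTCA was in 6 (18.8%), against 7.72% of all start windows and 10.4% at lncRNA starts. AATAAA was in 3 (9.38%), against 17.4% and 24.96% in the same order. CATGTG was in 4 (12.5%), which is above the 11.1% of all start windows and below the 14.8% at lncRNA starts. CACGTG was in 1 (3.13%), against 7.23% and 5.37%. CATGTG and CACGTG are both cases of the E-box CANNTG, and some windows of 1 lncRNA overlap each other, so the 32 are not independent. Median GC content was 68.3% in the 32 windows, 58.7% over all start windows and 50.0% over those at lncRNA starts. A match is a string of letters and not a bound site.

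The deposited table gives each region 1 mean over the 4 libraries and 1 log2 fold change, octanoate over vehicle, and no value for a single library. Gene-end regions were as narrow and as weak as most regions. Their median width was 430 bp (middle 50% from 312 to 649 bp), against 437 bp in the other nuclear regions and 1172 bp in regions within 1 kb of a coding start. Their median mean signal was 13.0 normalized reads (middle 50% from 7.69 to 25.3), against 12.2 in the other nuclear regions and 63.6 at starts. The adjusted p-value is 1 in every region whose mean was below 63.8 and under 1 in the 11185 others, which are called tested regions here. Of the gene-end regions 102 were tested (6.49%), against 49.9% of start regions, and the other 1469 of the 1571, with a deposited adjusted p of 1, are treated as not tested.

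As a check of the label, regions near the starts of melanocyte genes were looked up. MITF, the lineage's master regulator, had 3 listed regions near its starts, the strongest with a mean of 168 in the authors' deposited table, and DCT, a pigment enzyme, had 2, the strongest at 30.0. TYR and MLANA, a pigment enzyme and a melanosome protein, had 0 there, as did KRT5 (epithelium), PTPRC (blood) and ALB (liver). The check is partial, because the melanocyte genes SOX10 and PMEL had no known strand here and were not looked up. The same held for EPCAM, CD3E, PECAM1 and CDH5, planned as markers of other cell types. MLANA did have a gene-end region, with a mean of 14.6.

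Across the gene-end regions most fold changes lay above 0, as they did across the whole table. The median log2 fold change of the 1571 regions was 0.26, with a middle 50% from -0.01 to 0.53, and 1172 of them (74.6%) were above 0 in the authors' deposited table. The other nuclear regions had a median of 0.23 and 72.0% above 0. All tested regions had a median of 0.19, so part of any value here is shared by the whole table, and relative to that median the gene-end regions stood at 0.07 and the other nuclear regions at 0.04. No test of these medians was possible, because regions are not replicates and no value per library was used. The median standard error of a single gene-end region was 0.59.

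**Figure D1:**
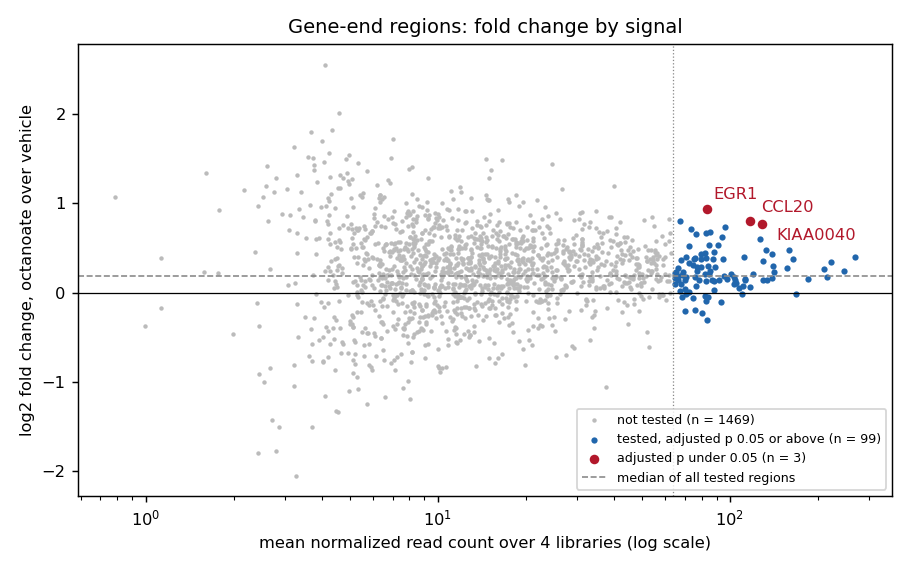
Each point is 1 of the 1571 gene-end regions, with its mean normalized read count over 4 libraries on a log scale (x) and its log2 fold change, octanoate over vehicle (y). The dotted line marks the lowest tested mean of 63.8 and the dashed line the median of all tested regions, 0.19. The 3 red points, EGR1, CCL20 and KIAA0040, have an adjusted p under 0.05, and the spread is widest among weak regions.

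The median fold change of gene-end regions was closer to that of regions away from both ends of coding genes, whether inside or between genes, than to that of gene starts. The 10411 regions within 1 kb of a coding start had a median log2 fold change of 0.14, which is 0.12 below that of the gene-end regions. In tested regions alone the difference was 0.0501. The 111288 regions within 1 kb of no coding start or end had 0.25. Relative to the tested median, the start regions turned negative, at -0.05, and the regions near no start or end stood at 0.06. The 664 regions that lay near a 3′ end and near a start as well had a median of 0.14, close to that of the starts. Above the tested median lay 57.1% of gene-end regions, 39.5% of start regions and 56.0% of regions near no start or end. These are descriptions of 1 table, and no test of the difference was made.

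The gap to starts was present at every level of signal. All nuclear regions were divided into 10 equal bins by mean signal, and the gene-end median was above the start median in 10 of 10 bins. The smallest gaps were 0.04 in bin 3 (means of 6.03 to 7.64) and 0.06 in bin 10 (58.7 and above), and the largest was 0.24 in bin 1 (means up to 4.57). Against the 114003 other regions that were not at a start of known strand, some of which lie at an end of a gene of unknown strand, the gene-end median was higher in 7 of 10 bins. The difference ran from -0.06 to 0.05 over the 10 bins. By chromosome, it was above the start median in 19 of the 20 chromosomes with at least 20 gene-end regions. The exception was chromosome 4, with 0.06 at gene ends and 0.08 at starts. Against the other nuclear regions of the same chromosome it was higher in 14 of 20. The gene-end medians of these chromosomes ran from 0.06 (chromosome 4, 61 regions) to 0.36 (chromosome 9, 74 regions).

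**Figure D2:**
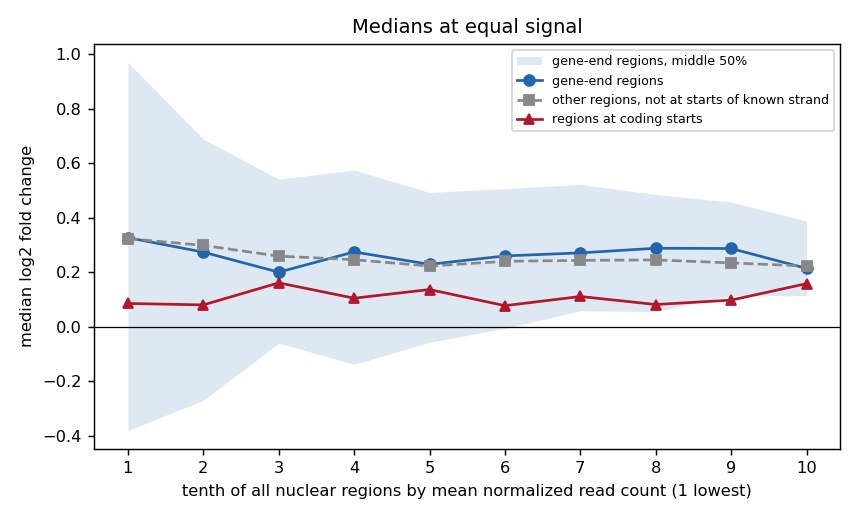
Median log2 fold change (y) in each of 10 equal bins of all nuclear regions by mean normalized read count (x, bin 1 lowest), for gene-end regions (circles, with their middle 50% shaded), regions at coding starts (triangles) and other regions not at a start of known strand (squares). The gene-end medians, 0.20 to 0.33, follow the squares and lie above the triangles, which run from 0.08 to 0.16.

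Position around the end made little difference to the fold change. The 599 regions wholly inside their gene had a median log2 fold change of 0.25, the 259 that covered the end itself 0.24, and the 713 wholly beyond the end 0.26. Signal did differ by position. Regions that covered the end had a median mean of 22.7 normalized reads and a median width of 619 bp, against 11.9 reads and 413 bp inside and 12.0 reads and 408 bp beyond. A wider region is more likely to touch any given point, and the part of width in this was not tested. Of the tested regions, 5 of 33 inside the gene, 5 of 32 at the end and 10 of 37 beyond it were higher at an unadjusted p under 0.05 in the authors' deposited table, against a background of 14.8% of all 11185 tested regions.

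**Figure D3:**
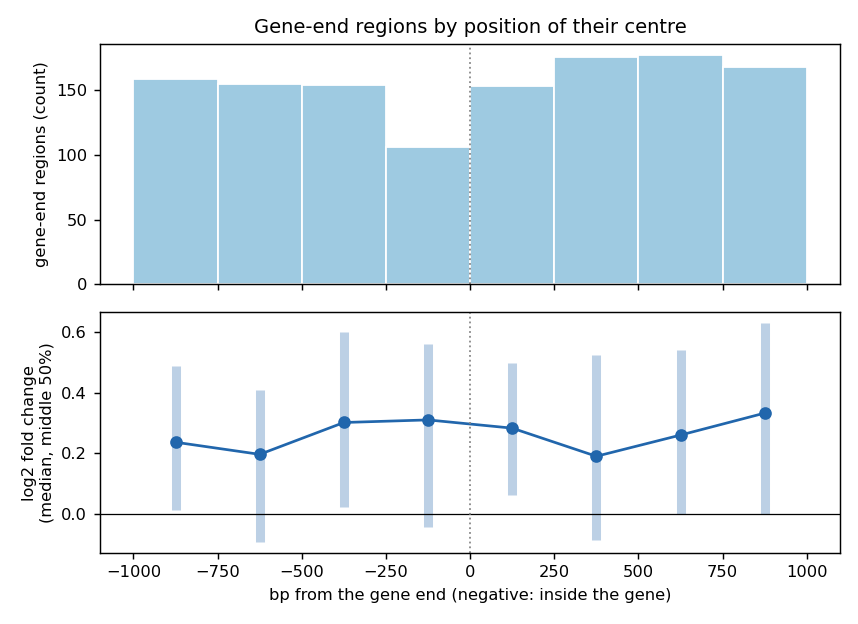
The 1248 gene-end regions whose centre lies within 1 kb of the gene end, in 8 bins of 250 bp (x, negative values inside the gene): their number (upper panel) and their median log2 fold change with the middle 50% (lower panel). The fewest regions, 106, are centred in the last 250 bp of the gene, and the bin medians run from 0.19 to 0.33 with overlapping ranges. The other 323 regions have their centre farther out.

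What lay around the end went with larger differences. The 193 gene-end regions that overlapped another coding gene had a median of 0.36 (log2), against 0.25 for the 1378 that did not. Ends that faced the end of a gene on the other strand within 1 kb also had 0.36 (90 regions, middle 50% from 0.02 to 0.55), against 0.25 for the other 1481. Of the 6 tested facing regions 0 were higher at an unadjusted p under 0.05, and of the 10 tested overlapping regions 5 were. The background was 14.8% of all tested regions, and counts this small are only a description. By contrast the 54 gene-end regions within 1 kb of a non-coding start of known strand had a median of 0.12, or -0.06 relative to the tested median, against 0.27 for the other 1517. Some of the 1517 lie near a non-coding gene of unknown strand: 1441 regions remained when either end of those genes was also counted as a start, with a median of 0.26. The 54 regions had a median mean of 30.3 and a median width of 747 bp, against 12.8 and 424 bp in the 1517, so that the lower fold changes of the 54 came with stronger signal, whose part in this was not tested. Of the 15 tested among the 54, 0 had an unadjusted p under 0.05 in the authors' deposited table, against 20 of the other 87 and a background of 14.8% of all tested regions. With 15 regions that background would be only a few, so the 0 is a description.

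Of the 5 regions whose lncRNA start sequences are printed above, those at S100A6, GDPD2, PRSS12 and HEXIM2 lay below the tested median and that at TBC1D2B above it. In the authors' deposited table the region at S100A6 (chr1:153532256-153534553, mean 112) had a log2 fold change of 0.14 (standard error 0.20), and that at GDPD2 (chrX:70433699-70435736, mean 104) had 0.14 (0.21). The PRSS12 region with the SNHG8 start (chr4:118278138-118279196, mean 91.7) had 0.14 (0.22) in the authors' deposited table. TBC1D2B (chr15:77993945-77995578, mean 75.8) had 0.38 (0.24) and HEXIM2 (chr17:45170833-45173223, mean 70.3) had -0.21 (0.25) there. Their adjusted p-values, from 0.454 to 0.801, did not pass the threshold.

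**Figure D4:**
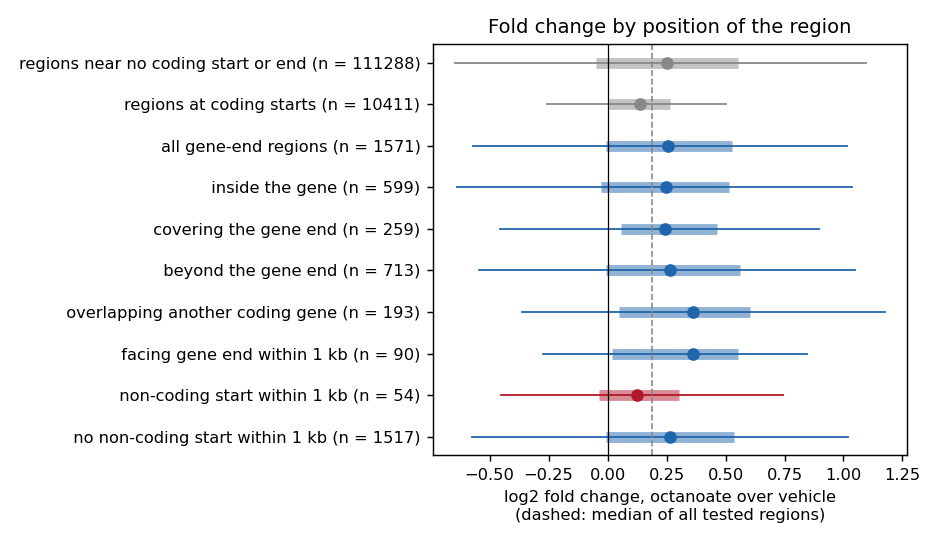
Log2 fold change, octanoate over vehicle (x), of regions by position (y, with the number of regions): the point is the median, the thick bar the middle 50% and the thin bar the 5th to 95th percentile. Gene-end regions with a non-coding start of known strand within 1 kb have a median of 0.12, near the 0.14 of coding starts, and all other sets of gene-end regions drawn lie from 0.24 to 0.36.

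Gene length and the distance to the nearest start went with smaller differences. Regions at the ends of genes under 10 kb had a median log2 fold change of 0.22 (421 regions), those of genes of 10 to 30 kb 0.29 (438), of 30 to 100 kb 0.30 (421) and of 100 kb or longer 0.24 (291). With the nearest start 1 to 2 kb away the median was 0.24 (119 regions), and with it over 20 kb away 0.28 (575). Narrow regions spread most: under 300 bp the median was 0.30 with a middle 50% from -0.13 to 0.67 (353 regions), and at 1000 bp or more it was 0.22 with 0.10 to 0.41 (197 regions). Within 5 Mb of a chromosome end, 194 gene-end regions had a median of 0.38, against 0.24 for the other 1377. The other nuclear regions differed in the same direction, at 0.33 and 0.22.

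The values at the limits of the rule were as follows. The outermost members, 901 to 1000 bp from the gene end, stood at a median of 0.21 on the log2 scale (123 regions), and regions just outside, at 1001 to 1100 bp, had 0.27 (119). At 1001 to 1100 bp from a start the median was 0.12 (6 members), and at 901 to 1000 bp, just excluded, it was 0.25 (11 regions).

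Among the 102 tested gene-end regions, 3 had an adjusted p under 0.05 in the authors' deposited table (DESeq2, Benjamini-Hochberg over all tested regions), and all 3 were higher with octanoate. That is 2.94% of the tested gene-end regions, and the background is 1.02% of all 11185 tested regions (114 called). With counts this small the share is only a description. At an adjusted p under 0.1 there were 7 (6.86%, background 2.98%). At an unadjusted p under 0.05, 20 were higher (19.6%, background 14.8%) and 0 were lower (background 0.107%). After the tested median of 0.19 was subtracted from every fold change, 9 were higher (background 3.16%) and 1 was lower (background 1.01%) at an unadjusted p under 0.05, and 0 passed an adjusted p of 0.05 (background 0.0536%, 6 regions). The tested gene-end regions had log2 fold changes from -0.31 to 0.93 in the authors' deposited table, 89 above 0 and 13 below, and 0 doubled. Given their median standard error of 0.23, an unadjusted p of 0.05 took a log2 fold change of 0.45.

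Of the 3 called regions the one with the largest fold change was at EGR1, an immediate early gene that encodes a zinc finger transcription factor induced by growth factor signalling. The region covered the 3′ end of this short gene, 3825 bp long (gene ID 1958, chr5:138469197-138471202). It had a mean of 83.2 normalized reads over the 4 libraries, and rose 1.91-fold, a log2 change of 0.93 (standard error 0.23, adjusted p 0.0165 by DESeq2), in the authors' deposited table. The region at the start of EGR1 was stronger, with a mean of 346 and 0.23 on the log2 scale (standard error 0.12, adjusted p 0.371). Within 100 kb of the EGR1 end there were 13 other listed regions, with a median of 0.23, beside 0.23 over all nuclear regions. Above 0 were 12 of them, beside 72.1% of all nuclear regions. Of the 3 tested, 1 was higher at an unadjusted p under 0.05 (background 14.8%) and 0 were called (background 1.02%).

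CCL20 encodes a chemokine that draws cells bearing the receptor CCR6. Its region (gene ID 6364, chr2:227817798-227819228) lay 242 bp beyond the 3′ end, had a mean of 117 and rose by 0.81 on the log2 scale (standard error 0.19, adjusted p 0.0101 by DESeq2) in the authors' deposited table. No region was listed within 1 kb of the CCL20 start. The 14 other listed regions within 100 kb had a median of 0.34, with 10 above 0, beside 72.1% of all nuclear regions. The tested one of these had 0.52 and was higher at an unadjusted p under 0.05 (background 14.8%) but not called (background 1.02%).

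At KIAA0040 the region (gene ID 9674, chr1:175157223-175158885) lay inside the gene, 237 bp before its end. It had a mean of 129 and rose by 0.77 on the log2 scale (standard error 0.19, adjusted p 0.0101 by DESeq2) in the authors' deposited table. The start region of KIAA0040 had 0.43 on the log2 scale (standard error 0.16, adjusted p 0.137). Within 100 kb, the 18 other listed regions, that at the KIAA0040 start among them, had a median of 0.47, and 14 of them were above 0, beside 72.1% of all nuclear regions. The 4 tested ones were all higher at an unadjusted p under 0.05 (background 14.8%). Of these 1 was called as well (background 1.02%), 9.91 kb away, with a log2 fold change of 0.71 (adjusted p 0.00585 by DESeq2). Another of the 4 was itself a gene-end region, that of TNN, a tenascin gene of the extracellular matrix (chr1:175145705-175147202, log2 fold change 0.52, standard error 0.24, adjusted p 0.283). After centring on the tested median the log2 fold changes were 0.75 (EGR1), 0.62 (CCL20) and 0.58 (KIAA0040), and none of the 3 calls held, with adjusted p-values of 0.356, 0.356 and 0.380 in the same order.

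Among the 51 tested gene-end regions with a mean of at least 84.7, their median, the highest fold changes after CCL20 and KIAA0040 did not pass the threshold. PYGB, the brain form of glycogen phosphorylase, had 0.74 (standard error 0.22, adjusted p 0.0637) at a region beyond its end that overlaps the gene ABHD12 (chr20:25298909-25302972) in the authors' deposited table. NIPSNAP3B had 0.68 (0.23, adjusted p 0.102) at chr9:104791294-104792329, a region that overlaps ABCA1, the cholesterol exporter. HMX3, a homeobox gene, had 0.63 (0.23, adjusted p 0.128) at chr10:123139367-123140671. The start regions of PYGB and NIPSNAP3B had lower fold changes, 0.23 (standard error 0.17) and -0.03 (0.24), whereas that of HMX3 had 0.53 (0.29).

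The lowest fold changes of this set lay close to 0. CELSR2, an atypical cadherin, had -0.11 (standard error 0.22, chr1:109274521-109276357) and AIM2, a sensor of cytosolic DNA, -0.02 (0.16, chr1:159054208-159056966) in the authors' deposited table. The AIM2 region also overlaps IFI16, a related gene on the other strand whose end faces that of AIM2. SHROOM1, which encodes an actin-binding protein, had -0.01 (0.20, chr5:132820052-132822243). BORCS6, a subunit of a complex that positions lysosomes, had 0.03 (0.22, chr17:8185892-8188174), and AKNAD1 had 0.05 (0.20, chr1:108816125-108817614). Both of the latter turn negative when centred on the tested median, at -0.16 and -0.14. Their adjusted p-values, with those of the first 3, ran from 0.852 to 0.982. Outside this set, at a mean of 83.1, MTARC1 had the lowest fold change of all tested gene-end regions, -0.31 (standard error 0.23). It was the 1 tested gene-end region that was lower at an unadjusted p under 0.05 after centring. MTARC1 was chosen after its value was seen.

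The strongest gene-end regions had middling fold changes. AMPD3, an AMP deaminase, had the highest mean, 269 normalized reads, with 0.40 on the log2 scale (standard error 0.13, adjusted p 0.0989) at chr11:10507736-10510378 in the authors' deposited table. SDR42E2 (mean 246, chr16:22189964-22191661) had 0.24 (0.14) and the predicted gene LOC124903573 (mean 222, chr15:89087636-89088704, overlapping ABHD2) had 0.34 (0.15). The LOC124903573 region also lay within 1 kb of a further listed start of a coding gene. BCAN, which encodes the matrix proteoglycan brevican, had a mean of 214 and a log2 fold change of 0.17 (0.15) at chr1:156659872-156662522, or -0.02 relative to the tested median. BHLHE40, a transcriptional repressor linked to the circadian clock, had a mean of 210 and 0.26 (0.15, adjusted p 0.399) at chr3:4985759-4987576. Its own start region, with a mean of 499.9, had 0.43 (0.11) with an adjusted p of 0.0174 by DESeq2 in the authors' deposited table. Here the start was called and the end was not, and the difference between them was not tested. After centring on the tested median the start stood at 0.24 and was no longer called (adjusted p 1).

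**Figure D5:**
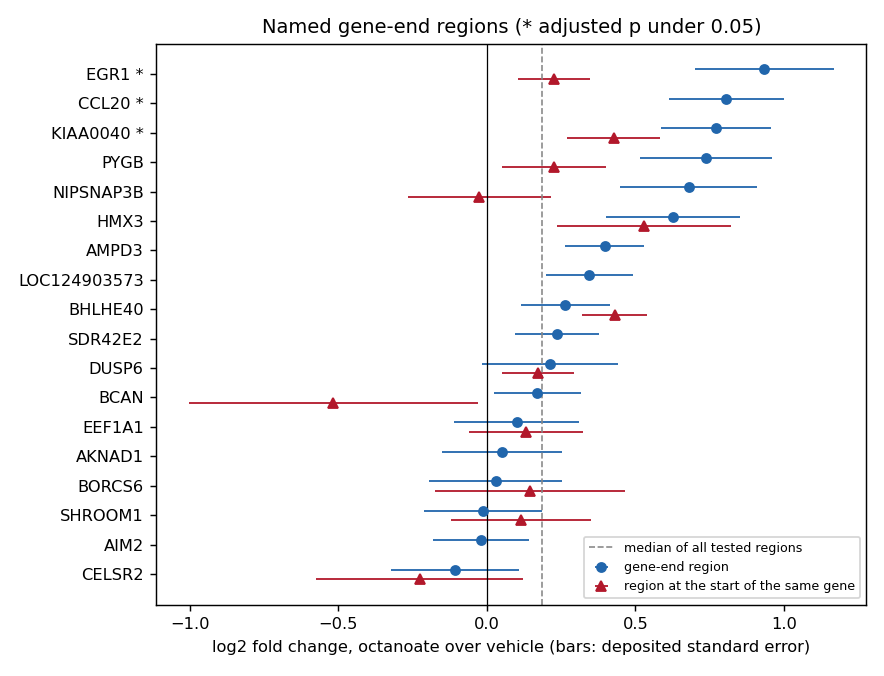
Log2 fold change, octanoate over vehicle (x), of the 18 named gene-end regions (circles) and, where listed, of the region at the start of the same gene (triangles), with the deposited standard errors as bars. EGR1, CCL20 and KIAA0040 (marked * in their labels) lie highest, from 0.77 to 0.93, and BHLHE40 is the named gene whose start region has an adjusted p under 0.05.

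The 2 ends of a gene were also set side by side. A region was listed at the start of the same gene for 1115 of the genes with a gene-end region. The gene-end region had the higher log2 fold change in 651 of them (58.4%), with a median difference, end minus start, of 0.09. The start region had the higher mean in most, with a median of 71.5 normalized reads against 13.5 at the end, and the end was stronger in 154 genes. Across genes the 2 fold changes were barely related, with a Pearson correlation of 0.04 and a Spearman correlation of 0.07 over the 1115 genes. Both values of a gene come from the same 4 libraries, and the median standard error of 0.58 at the ends limits any correlation. Where both regions were tested, in 36 genes, the end was higher in 21, with a median difference of 0.05 and a Pearson correlation of 0.07.

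Among gene lists, the AP-1 and immediate early genes had the most gene-end regions for their number. These genes are switched on within minutes of a signal, for instance through the ERK pathway, and many are short. Of 31 list genes with a known strand, 12 had 14 gene-end regions, whose log2 fold changes had a median of 0.37, and 11 of the 14 were above 0 and 10 above the tested median. Over all nuclear regions the median was 0.23, with 72.1% above 0 and 54.3% above the tested median. Of the 14, 2 were tested and 1 was called, EGR1, beside a background of 1.02% of all tested regions. The other was DUSP6, the phosphatase that shuts off ERK (chr12:89345710-89347743, mean 82.0), with 0.21 (standard error 0.23, adjusted p 0.696) in the authors' deposited table.

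The untested immediate early regions went from high to low within the list. FOS, which encodes a subunit of AP-1, had 2 in the authors' deposited table. That beyond its end (chr14:75282616-75284171, mean 39.2) stood at 0.84 (standard error 0.34) and that inside the gene at 0.43 (0.55). PHLDA1 had 0.72 (0.38, chr12:76024722-76026180). SPRY2, an inhibitor of receptor tyrosine kinase signalling, had 0.31 (0.31), and KLF4, EGR4, KLF6 and DUSP1 had 0.27 to 0.51 with standard errors of 0.56 to 0.95. The 2 regions of IER5L had 0.07 and -0.26, and those of IER2 and ZFP36 had -0.12 and -0.04. The list was fixed with earlier results for these data known.

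Many C2H2 zinc finger genes repress transposable elements. They were picked here by names that start with ZNF, ZSCAN, ZKSCAN, ZIM, ZFP or ZIK and a digit. This rule also takes in ZFP36 of the immediate early list, which is not of the C2H2 type. The genes so named had 21 gene-end regions, at 21 genes among the 478 with a known strand. Their median log2 fold change was 0.36, 18 were above 0 and 15 above the tested median, beside 72.1% and 54.3% of all nuclear regions. The tested one of these, ZNF783 (chr7:149284270-149286025, mean 111), had 0.40 (standard error 0.21, unadjusted p 0.0535) in the authors' deposited table and was not called (background 1.02%). ZNF701, whose region holds the start of the lncRNA LOC137778871, had 0.73 (0.37) at a mean of 33.0. Both genes were chosen after their values were seen.

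The remaining lists had from 1 to 5 gene-end regions each, and their values are given singly. Of melanocytic genes, MLANA had a log2 fold change of 0.63 (standard error 0.58), DCT 0.52 (0.51) and the transcription factor TFAP2A 0.08 (0.37) in the authors' deposited table. Of undifferentiated and mesenchymal genes, VIM, the intermediate filament vimentin, had 0.53 (0.29) at a mean of 51.4. TGFBI and SERPINE2 had 0.29 and 0.40, and the transcription factors SOX2 and TWIST2 had -0.08 and -0.50, with standard errors from 0.51 to 1.16. Of fatty acid oxidation genes, ACSL1, which activates long-chain fatty acids, had 0.83 (0.71), CROT, the carnitine octanoyltransferase that takes octanoyl-CoA as a substrate, 0.04 (0.59), and UCP2 -0.02 (0.83). HDAC1, a histone deacetylase, was the sole gene of the acetyl-CoA and histone acetylation list, at 0.60 (0.59).

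Among neuronal genes, SYT1 had 0.14 (standard error 0.34), CAMK2A 0.57 (0.48), CACNA1A 0.49 (0.73) and DLG2 0.26 (1.63) in the authors' deposited table. The tested housekeeping region, at EEF1A1, a translation elongation factor (chr6:73511132-73516480, mean 104), had 0.10 (0.21, adjusted p 0.860), or -0.09 relative to the tested median, and those of PSMB4, PKM, HSPA8 and LDHA had -0.58 to 0.42. All regions of these lists except that of EEF1A1 were untested, and that one was not called (background 1.02%).

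The other tested gene-end regions with an unadjusted p under 0.05 had adjusted p-values of 0.0786 to 0.242. They lay at TUBGCP2, SMIM21, FTSJ1, BRI3BP, ACAD8, MTR, OPN3, IGBP1C, RPS9, CRIP2 and the predicted gene LOC124901803, with log2 fold changes from 0.38 to 0.80 in the authors' deposited table. ACAD8 encodes a mitochondrial acyl-CoA dehydrogenase of valine breakdown, MTR the methionine synthase, and RPS9 a ribosomal protein. Of all 20 such regions 6 lay within 5 Mb of a chromosome end, as did 12 of the 102 tested gene-end regions. These genes were chosen after their values were seen.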

How the data were processed

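ATAC-seq of A375 cells was deposited by the authors as 1 table comparing octanoate with vehicle (2 libraries each). Per the file headers and title it is DESeq2 output: the deposited signal is a mean normalized read count over the 4 libraries, with a log2 fold change and standard error, a score (Wald statistic) and a p-value with its adjusted form. Per the submitters' processing notes, Trim Galore, cutadapt, FastQC, Bowtie2, Picard, MACS2, featureCounts, DESeq2 and bedtools 2.29.1 were used with build hg38; their roles, the Tn5 shift, peak merging and scaling are not given in the sources used here. Per the labels' protocols libraries were read to an average of 40000000 to 50000000 paired reads; the depth of each is unknown, so no counting intervals are given.

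The deposited adjusted p equalled Benjamini-Hochberg over 11185 regions, those whose mean reached 63.8, and was 1 in the other 114801, treated as not tested. Starts in the table were taken as counted from 0, because the mitochondrial region begins at 0, and are printed counted from 1. Genes came from the RefSeq table of GRCh38.p14, strand from its promoter table. Gene ends on chromosome 8, with 0 genes of known strand there, were not analysed here, but its regions are in the comparison sets and backgrounds. Distance is from a region's nearest edge, and a region belongs to the nearest gene end. Centred p-values were recomputed from deposited standard errors. Scripts (Python 3.11.15, pandas 2.3.3, scipy 1.17.1) were tested on simulated data.

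Named regions were all gene-end regions past the threshold, the 5 highest and 5 lowest fold changes among tested ones with at least their median mean, the 5 strongest, and up to 3 tested regions per gene list other than the zinc finger list. Members and lists were chosen with earlier results of these data known. GC content and motifs of the regions themselves were not analysed here. No value per library was used, so no count test, pseudocount or replicate left out was tried.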

Additional observations from a re-analysis of the deposited data

How the results depend on the processing

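The 3 gene-end regions past the threshold became 7 at an adjusted p of 0.1 and 0 at 0.01, 0 when p was adjusted over all listed regions, 0 after centring on the tested median and 1 when regions had to be over 5 kb from every start, a rule that by construction removes short genes such as EGR1 and CCL20. The other 5 of 10 settings gave 3 or 4. The median of 0.26 moved to 0.21 in tested regions and, by construction, to 0.071 after centring; under the other 11 settings it stayed within 0.23 to 0.28, its exact binomial 95% interval over regions, which was the yardstick for medians and does not describe replicates. The difference from other nuclear regions, 0.03, ran from 0.01 to 0.05 over 11 settings without changing sign. The difference from start regions, 0.12, was 0.0501 in tested regions, 0.153 averaged over the 10 signal bins and 0.086 within genes, and the within-gene difference of 0.086 was 0.048 where both regions were tested; the cause was not tested. Centring turned BORCS6 (-0.157), AKNAD1 (-0.136), BCAN (-0.016) and EEF1A1 (-0.087) below 0, since each had been below 0.19. The settings on chromosome ends, unknown strand, further coding starts, own starts, gene lists and position, and the centring of medians and named regions, were chosen after seeing the data. No paired analysis was possible because single libraries have no values here, and for the same reason leaving out a replicate was not run.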

Other observations

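In the same 10 bins of signal, gene-end regions and other regions not at a start of known strand both had their highest median log2 fold change in the lowest bin, 0.33 and 0.32, whereas the start regions had 0.08 there. The 110 regions near a 3′ end that were left out because a gene of unknown strand began or ended within 1 kb had a median of 0.13 and a median mean of 34.0 normalized reads, and 1 of the 22 tested among them was called, beside 1.02% of all tested regions.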
